A study of Mus musculus with 6 samples.

Results

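The 10 genes described here make and load the MHC class I molecule: the classical heavy chains H2-K1 and H2-D1, the light chain gene B2m, the peptide loading genes Tap1, Tap2 and Tapbp, the immunoproteasome subunits Psmb8, Psmb9 and Psmb10, and the transactivator Nlrc5. They were chosen by symbol, without use of their values, and all 10 were found among the 23946 rows of the deposited table. RNA was sequenced from cells sorted as CD45+CD11b+F4/80+ from 2 fat tissues of female C57BL/6 mice 6 to 8 weeks old, namely the omentum (called OM) and the mesentery (called MY). Each tissue was taken from naive mice and from mice 24 h and 7 d after an intraperitoneal injection of ID8 cells, a mouse ovarian carcinoma line of the same strain. Omenta of 3 mice were combined per time point, each of the 6 conditions is 1 library, and the labels do not say whether OM and MY came from the same mice. The labels call the control libraries naive while the methods describe controls given PBS, so an effect of the injection and one of the cells cannot be told apart. Without replicates there is no estimate of error and no test, and each difference describes a pair of libraries.

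MHC class I molecules show peptides from inside the cell to CD8 T cells and are also read by NK cells. Proteins are cut by the proteasome, whose constitutive catalytic subunits Psmb5, Psmb6 and Psmb7 can be replaced by the inducible Psmb8, Psmb9 and Psmb10. The peptides are pumped into the endoplasmic reticulum by the TAP1 and TAP2 transporter, and tapasin (Tapbp) holds the transporter beside the empty heavy chain and beta-2 microglobulin. Interferon-gamma induces most of these genes, in part through IRF1, and NLRC5, without binding DNA itself, acts at the S, X and Y boxes of class I promoters. Nearly all nucleated cells express class I, so its level is not a mark of macrophages.

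The promoters are shown first because some of them carry boxes through which class I genes are known to be controlled. The pair of X2 and Y cores described below was found in 3 of the 8 members searched. RefSeq windows of assembly GRCm38.p6 were found for 8 of the 10 members, and Tap2 and Nlrc5 had none in the table used. The 200 bases before the annotated start follow, 5′ to 3′ on the strand of the gene. Capitals mark a kappa B element (GGGGA and TCCC, 1 base apart), an interferon-stimulated response element (GAAA and GAAA, 2 bases apart), and the cores of an X2 box (TGACG) and a Y box (ATTGG). In H2-K1, H2-D1 and B2m the X2 and Y cores are capitalized only where they form a pair, and in Tap1 the X2 core stands alone.
H2-K1 (chr17:34000348-34000547, minus strand): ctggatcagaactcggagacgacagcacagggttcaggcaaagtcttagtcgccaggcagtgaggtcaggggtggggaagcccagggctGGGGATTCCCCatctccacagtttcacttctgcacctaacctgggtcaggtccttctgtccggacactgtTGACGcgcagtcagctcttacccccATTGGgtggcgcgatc
H2-D1 (chr17:35262894-35263093, plus strand): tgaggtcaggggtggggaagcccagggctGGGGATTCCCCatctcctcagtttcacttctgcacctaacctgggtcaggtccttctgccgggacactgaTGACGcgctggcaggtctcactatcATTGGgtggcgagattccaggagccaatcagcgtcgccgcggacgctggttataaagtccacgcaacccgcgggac
B2m (chr2:122147487-122147686, plus strand): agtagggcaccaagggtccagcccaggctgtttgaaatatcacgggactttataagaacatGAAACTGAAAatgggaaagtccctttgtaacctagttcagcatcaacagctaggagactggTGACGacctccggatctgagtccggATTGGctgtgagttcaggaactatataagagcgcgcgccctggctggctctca
Tap1 (chr17:34187356-34187555, plus strand): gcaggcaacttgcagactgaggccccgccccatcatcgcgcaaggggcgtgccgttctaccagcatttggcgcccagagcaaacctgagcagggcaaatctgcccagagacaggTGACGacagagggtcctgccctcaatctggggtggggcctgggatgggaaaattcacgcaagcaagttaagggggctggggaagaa

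In H2-K1, H2-D1 and B2m the X2 core was followed, after exactly 20 bases, by the Y core. Searched on both strands in the 250 bases before each start, this arrangement was present in 30 of all 32851 mouse windows (0.0913%), which belonged to 26 genes, among them the class I gene H2-M3. The spacing was set after the promoters had been read, so the count is a description. The kappa B element was found in H2-K1 and H2-D1 and in 0.289% of all windows. The stretch also matches on the opposite strand, shifted by 1 base. The response element of B2m occurred in 2.98% of windows, and the gamma-activated element (TTC and GAA, 3 bases apart), found in Psmb8 alone of the 8 members searched, in 7.02%. The X2 core alone was in 5 of the 8 members and in 17.8% of windows, and the Y core alone in 6 of 8 and in 33.8%. Among the 12441 windows of expressed genes (FPKM of at least 1 in any library), 25.7% held the X2 core and 35% the Y core. There the spaced pair was in 0.177%, the kappa B element in 0.37%, the response element in 2.81% and the gamma-activated element in 6.07%. Psmb9 and Tap1 lie head to head and their windows shared 275 bases, so the X2 and Y cores counted for Tap1 and for Psmb9 are the same sites. A match is a run of letters and not a shown binding site.

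**Figure D1:**
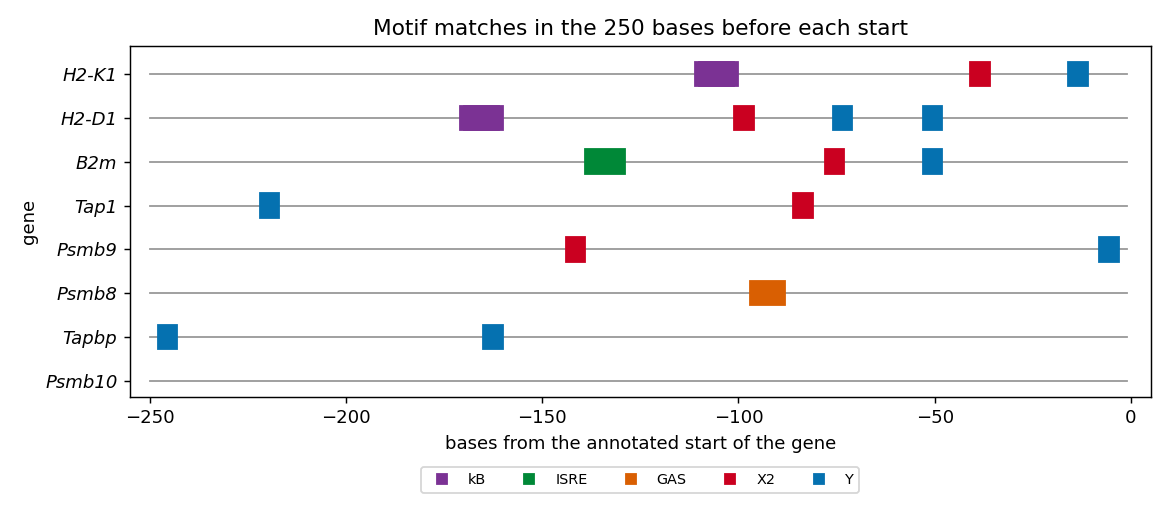
Motif matches on either strand in the 250 bases before the annotated start of 8 members (x axis, bases from the start; 1 row per gene). In H2-K1, H2-D1 and B2m an X2 core (red) is followed by a Y core (blue) after 20 bases, and no match was found in Psmb10.

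Of the members, 7 lie on chromosome 17 in the MHC. In the assembly used by the authors (NCBI37/mm9, GENCODE M1 annotation), Psmb9, Tap1, Psmb8 and Tap2 sit side by side from 34318932 to 34353266, H2-K1 lies at 34132962 to 34137278 and H2-D1 at 35399675 to 35404444. Psmb9 and Tap1 overlap by 200 bases on opposite strands. The sources do not state that counting used strand, so reads in that overlap may count for either gene. B2m lies on chromosome 2, and Psmb10 and Nlrc5 on chromosome 8. Class I heavy chains resemble each other, and reads can be split between them. Of the 75-base windows of the longest coding transcript, 1.57% of those of H2-K1 and 6.46% of those of H2-D1 were also found in transcripts of other genes, mostly of the class I family. For H2-Q6 and H2-Q7 the shares were 14.3% and 15.9%. None of the windows of B2m, Tap1, Tap2, Tapbp, Psmb8, Psmb9 or Psmb10 was shared. Nlrc5 had no coding transcript in that annotation and was not checked.

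Levels are FPKM, fragments scaled by gene length and by the aligned fragments of the library, as the authors deposited them. The table holds no read counts, so the depth behind a value is not known. The FPKM summed to between 526887 and 713863 per library. Ptprc (CD45), Itgam (CD11b) and Emr1 (F4/80), the genes of the sort markers, were at 105.8 to 208.3, 27.8 to 150.9 and 20.5 to 135.0. Genes of other cell types were present as well, and they differed between the tissues. All 6 T cell markers in the table and all 7 NK cell markers were higher in every MY library than in every OM library. Their summed FPKM was 497 to 1122 against 23.1 to 92.2 for T cells and 654 to 1586 against 14.3 to 240 for NK cells. Neutrophil markers ran the other way, with a sum of 6477 to 17157 in the omentum and 224 to 735 in the mesentery, and mesothelial and epithelial markers summed to 92.4 to 987 in the omentum and to at most 1.20 in the mesentery. The macrophage list itself summed to 957 to 9445 in OM and 948 to 2302 in MY, the monocyte list to 1526 to 2174 and 501 to 701, the B cell list to 937 to 4093 and 563 to 1621, the dendritic cell list to 186 to 409 and 620 to 899, and the fibroblast list to 221 to 1190 and at most 3.10. Of the markers, Pdgfra, Lrrn4 and Wt1 were at 0 in at least 1 library. Cd74, the class II invariant chain, was listed at 0 in OM 24 h and at 11323 or more elsewhere, whereas no member was at 0 in any library. In bulk RNA, fewer cells of a type and less RNA per cell cannot be told apart.

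The class I pair of heavy and light chain was among the most abundant RNA of every library. B2m, the light chain, had an FPKM of 4180, 5127 and 3286 in the omentum (naive, 24 h, 7 d) and of 4833, 4646 and 4171 in the mesentery, and it ranked between 4 and 9 among the 13064 expressed genes of each library. A gene counts as expressed where 1 or more libraries reach an FPKM of 1. H2-D1, the Db heavy chain, was at 3256, 3652 and 2554 in the omentum and at 3227, 3496 and 3325 in the mesentery. For both genes the tissues overlapped, and OM 7 d was the lowest library while OM 24 h was the highest.

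H2-K1, the Kb heavy chain, was separated by tissue. It stood at 1945, 1981 and 1661 in the omentum and at 2958, 2846 and 2526 in the mesentery, so the lowest mesenteric library was 1.27 times the highest omental one. The ratio of H2-K1 to H2-D1, which does not depend on scaling between libraries, was 0.543 to 0.650 in the omentum and 0.760 to 0.917 in the mesentery. H2-D1 thus exceeded H2-K1 in all 6 libraries, and by more in the omentum. Together, H2-K1, H2-D1 and B2m held 1.34% to 1.51% of the FPKM of an omental library and 1.87% to 2.09% of that of a mesenteric one.

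**Figure D2:**
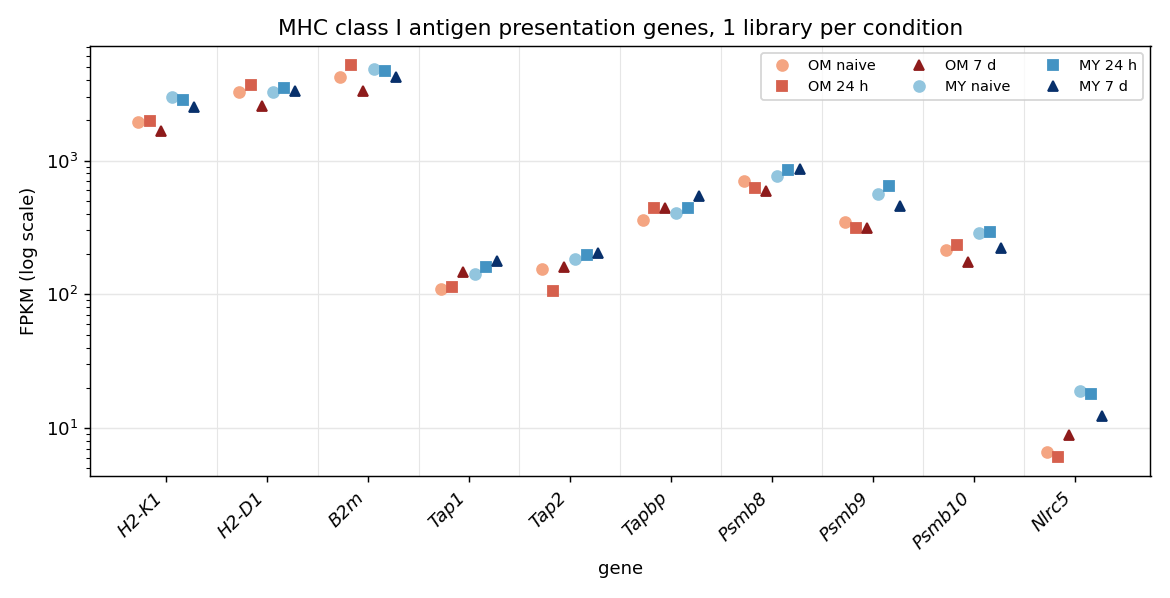
FPKM (log axis) of the 10 genes in each of the 6 libraries, with omental libraries in red and mesenteric ones in blue and 1 point per library. B2m, H2-D1 and H2-K1 lie at 1661 or above in every library, and Nlrc5 lies between 6.12 and 18.9 with the tissues apart.

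The peptide loading genes were well below the heavy chains on the FPKM scale, which is per length. Tap1, the first transporter subunit, was at 110, 114 and 147 in the omentum and at 143, 160 and 179 in the mesentery, with OM 7 d above MY naive. Tap2, its partner, was at 154, 106 and 160 in the omentum and 184, 198 and 203 in the mesentery, with no overlap. The ratio of Tap1 to Tap2 was 0.715 in OM naive and 1.08 in OM 24 h, where Tap2 was at its lowest, and 0.778 to 0.880 in the mesentery. Tapbp, which encodes tapasin, was at 362, 445 and 443 in the omentum and at 406, 445 and 540 in the mesentery. Its value at 24 h was nearly equal in the tissues (log2 fold change 0.00, and -0.32 with every library rescaled to sum to 1000000). Tapbp and Tap1 had their highest value in MY 7 d and their lowest in OM naive.

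Among the immunoproteasome genes, Psmb8 was at 709, 627 and 590 in the omentum and at 767, 843 and 868 in the mesentery. Psmb9 was at 347, 315 and 311 in the omentum and at 559, 645 and 454 in the mesentery. Neither gene overlapped between the tissues, and the lowest mesenteric value of Psmb9 was 1.31 times the highest omental one. Psmb10 was at 214, 233 and 175 in the omentum and at 285, 294 and 220 in the mesentery, with MY 7 d below OM 24 h.

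The constitutive subunits that these replace were level across the libraries. Psmb5 ranged from 172 to 226, Psmb6 from 184 to 240 and Psmb7 from 85.1 to 111, and each overlapped between the tissues, except for Psmb5 after rescaling to a sum of 1000000. The ratio of inducible to constitutive subunit within a library was lower in every omental library for 2 of the 3 pairs. Psmb9 to Psmb6 was 1.32 to 1.89 in OM and 2.27 to 3.06 in MY. Psmb10 to Psmb7 was 1.81 to 2.13 in OM and 2.59 to 3.31 in MY. Psmb8 to Psmb5 overlapped, at 2.77 to 3.88 in OM and 3.68 to 4.69 in MY, with OM naive above MY naive. Every ratio was above 1, so the inducible subunit was the higher of each pair in all 6 libraries. The median of the 3 pairs was 2.13, 2.10 and 1.81 in the omental libraries and 2.75, 3.31 and 2.59 in the mesenteric ones.

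**Figure D3:**
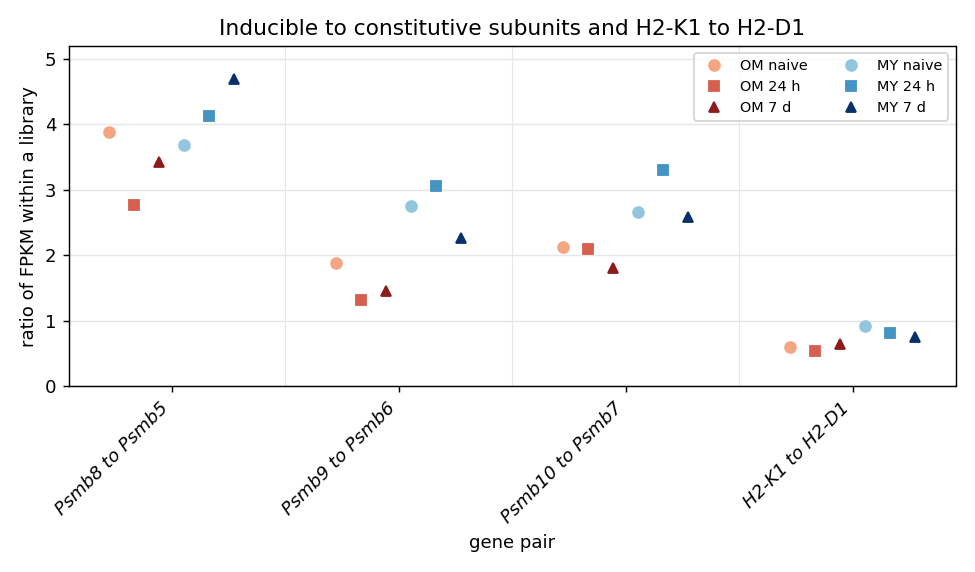
Ratio of FPKM within each library for the 3 pairs of inducible and constitutive proteasome subunits and for H2-K1 to H2-D1, with 1 point per library. Omental points (red) lie below mesenteric points (blue) for Psmb9 to Psmb6, Psmb10 to Psmb7 and H2-K1 to H2-D1, and the tissues overlap for Psmb8 to Psmb5.

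Nlrc5, the transactivator of class I genes, had the lowest level and the widest range of the 10. Its FPKM was 6.61, 6.12 and 8.95 in the omentum and 18.9, 18.1 and 12.4 in the mesentery. The tissues did not overlap, and they were closest at 7 d. On the log2(FPKM + 1) scale OM naive was 1.38 below MY naive, OM 24 h was 1.42 below MY 24 h and OM 7 d was 0.43 below MY 7 d. T cell and NK cell markers, listed above, were higher in the same libraries. NK markers summed to 1586, 964 and 654 in the mesentery (naive, 24 h, 7 d), and T cell markers to 861, 497 and 1122. In the omentum the sums were 240, 14.3 and 114 for NK cells and 91.7, 23.1 and 92.2 for T cells. From the naive library to 24 h both sums were lower in each tissue, and Nlrc5 was nearly level. In the mesentery the NK sum and Nlrc5 were both lowest at 7 d, where the T cell sum was highest. The summed dendritic cell markers were also higher in every MY library (620 to 899) than in every OM library (186 to 409). The part of these cells in the Nlrc5 difference was not tested. Ciita, the related transactivator of class II genes, was at 37.7 to 53.2 in OM and 38.1 to 49.6 in MY, and the ratio of Nlrc5 to Ciita was 0.124, 0.140 and 0.238 in the omentum and 0.495, 0.447 and 0.250 in the mesentery.

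Between the naive libraries, 1 member (Nlrc5) was at least 2-fold lower in the omentum and 0 were higher, against 8.05% and 8.18% of all expressed genes (16.2% in either direction). The other 9 members had log2 fold changes between -0.69 (Psmb9) and 0.01 (H2-D1), and the median over the 10 was -0.31 beside 0.01 over all expressed genes. Of the 10, 9 were below 0. H2-D1, the exception, became -0.22 when each library was rescaled to a sum of 1000000.

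After the injection, no member was 2-fold apart from the naive library of either tissue. For OM 24 h against OM naive the share of all expressed genes past 2-fold was 18.3% (11.9% higher, 6.45% lower), and the members lay between -0.54 (Tap2) and 0.30 (Tapbp), with a median of 0.04 that became -0.16 after rescaling to a sum of 1000000. For OM 7 d against OM naive 12.9% of all genes passed (11.0% higher, 1.96% lower), and the members lay between -0.35 (H2-D1) and 0.41 (Tap1), with a median of -0.19. In that comparison H2-D1, B2m, H2-K1 and the 3 immunoproteasome genes were lower, while Tap1, Tapbp, Nlrc5 and Tap2 were higher. In the mesentery 4.32% of all genes passed at 24 h (2.80% higher, 1.52% lower) and 2.79% at 7 d (0.498% higher, 2.29% lower). The members lay between -0.06 (Nlrc5) and 0.20 (Psmb9) at 24 h, and between -0.57 (Nlrc5) and 0.41 (Tapbp) at 7 d, with medians of 0.11 and -0.08. The first of these medians became -0.01 after rescaling to a sum of 1000000. These 4 comparisons share the naive library of their tissue.

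Between the tissues at 24 h, Nlrc5 (-1.42) and Psmb9 (-1.03) were at least 2-fold lower in the omentum, 2 of 10 members beside 10.2% of all genes, and 0 of 10 were higher beside 13.9% (24.1% in either direction). Tap2 followed at -0.90, and at -1.22 after rescaling to a sum of 1000000. The median of the members was -0.46, and H2-D1, B2m and Tapbp were at or slightly above 0, but below it after rescaling to a sum of 1000000. At 7 d all 10 members were lower in the omentum, none of them by 2-fold, beside 4.99% of all genes that were (14.1% were higher, 19.1% either). They lay in a narrow band between -0.60 (H2-K1) and -0.28 (Tapbp) with a median of -0.36, beside a median of -0.01 over all expressed genes, of which 51.1% were below 0.

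**Figure D4:**
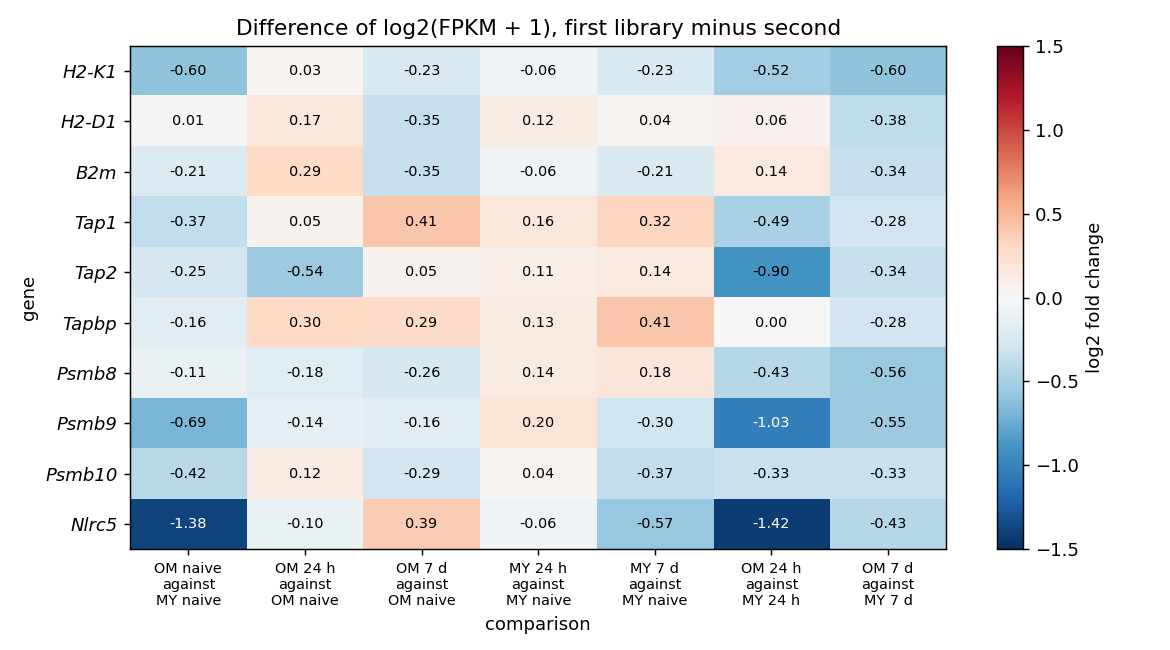
Log2 fold change of each gene (rows) in 7 comparisons of 2 libraries (columns), as the difference of log2(FPKM + 1) with the value printed in each cell. Only Nlrc5 (naive and 24 h) and Psmb9 (24 h) are beyond -1, all in OM against MY, and the 4 columns against a naive library of the same tissue lie between -0.57 and 0.41.

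Across all time points, 5 of the 10 members (H2-K1, Tap2, Psmb8, Psmb9 and Nlrc5) were higher in every mesenteric than in every omental library, a pattern held by 17.7% of all expressed genes. The opposite pattern was held by 0 of 10 members and by 16.7% of all genes. After rescaling to a sum of 1000000 the first count was 9 of 10, all but Tapbp, beside 25.9% of all genes. It was 6 without the naive libraries, 6 without the 24 h libraries and 7 without the 7 d libraries, beside 28.5%, 26.0% and 25.7% of all genes. The time points are not replicates, so these counts carry no test. Among the 961 genes with a mean FPKM of at least 100, the highest library was less than 2-fold above the lowest in 59.7%, and this held for 8 of the 9 members at that level, Psmb9 being the exception at 2.08-fold.

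Of the 14 other class I and class I-like genes expressed, 10 were higher in every mesenteric library (17.7% of all genes) and 0 in every omental one (16.7%), while H2-Q2, H2-T24, H2-M3 and Mr1 overlapped. Cd1d2 and H2-Q2 counted as expressed through mesenteric libraries alone, so the filter favours a lower omental value for them. Cd1d2 is in the 10 and in both counts of 7 below. H2-T24 was at 10.3, 8.50 and 7.62 in the omentum and 9.79, 5.81 and 7.48 in the mesentery. Between the naive libraries 7 were at least 2-fold lower in the omentum (8.05% of all genes) and 0 higher (8.18%), with a median log2 fold change of -1.06. Cd1d1, which presents lipids to NKT cells, was at 16.5, 11.1 and 12.7 in the omentum and 77.3, 121 and 51.8 in the mesentery, with log2 fold changes of -2.16, -3.33 and -1.95 between the tissues. At 24 h 7 of the 14 genes were 2-fold lower in the omentum (10.2% of all genes) and at 7 d 3 were (4.99%), or 5 after rescaling to a sum of 1000000. H2-T10 was at 1.12, 0.489 and 1.30 against 5.27, 5.07 and 2.36, 2-fold lower in OM in the naive libraries (-1.56) and at 24 h (-2.03). Cd1d2, the close copy of Cd1d1, was listed at 0, 0 and 0.140 against 1.73, 4.23 and 0.842. H2-M2 was at 7.71, 9.00 and 6.60 against 37.9, 42.0 and 19.2. H2-Q7 was at 169, 121 and 181 against 372, 330 and 298, and H2-Q6, whose sequence it shares in part, at 105, 37.2 and 103 against 172, 190 and 155. H2-Q6 was the only gene of the list at least 2-fold lower in OM 24 h than in OM naive (-1.48), and H2-Q10 the only one higher (1.26, from 0.451 to 2.47). In MY 7 d against MY naive, H2-Q4 was lower by 2-fold (-1.17). H2-T23, which encodes the Qa-1 molecule read by NK receptors, was abundant and nearer to even, at 392 to 425 in OM and 492 to 588 in MY. H2-M3, which presents formylated peptides, and Mr1, which presents vitamin metabolites, overlapped between the tissues.

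The genes that regulate class I were measured from a list of 11, of which 6 were higher in every mesenteric library (17.7% of all genes) and 0 in every omental one (16.7%). Irf1, an interferon-induced activator of class I genes, was at 87.2, 88.5 and 176 in the omentum and at 229, 337 and 227 in the mesentery. Its value was at least 2-fold lower in OM than in MY in the naive libraries (-1.38) and at 24 h (-1.92), and at least 2-fold higher in OM 7 d than in OM naive (1.01). Stat2 was at 8.60, 5.65 and 11.7 in OM and 16.6 to 20.6 in MY, 2-fold lower in the omentum in the same 2 comparisons. Nlrc5, Irf1 and Stat2 were closest between the tissues at 7 d. Nfkb1 was 2-fold lower in OM 24 h than in OM naive (-1.14, from 48.9 to 21.6).

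Of the other regulators, Irf8 was at 156 to 194 in OM and 261 to 326 in MY. The RFX complex, which binds the X box, has 3 subunits, each higher in every mesenteric library. Rfx5 was at 5.65 to 10.1 in OM and 10.6 to 11.1 in MY, Rfxap at 12.2 to 15.5 and 15.8 to 18.8, and Rfxank at 5.61 to 6.69 and 8.30 to 9.32. Irf2, Irf9, Rela and Ciita overlapped and passed 2-fold in none of the 7 comparisons.

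Ifng was low, and OM 24 h stood far below the others. Its FPKM was 7.27, 0.0219 and 5.05 in the omentum and 10.2, 4.21 and 3.92 in the mesentery. It was at least 2-fold lower in OM 24 h (-3.02), MY 24 h (-1.10) and MY 7 d (-1.19) than in the naive library of the tissue. NK markers, from cells that make interferon-gamma, summed to 14.3 in OM 24 h and 240 in OM naive; their part was not tested. In the same library H2-K1 and H2-D1 differed from OM naive by 0.03 and 0.17 (log2), and by -0.18 and -0.04 after rescaling to a sum of 1000000. Ifngr2, a receptor chain, was 2-fold higher in OM 24 h than in OM naive (1.33, from 54.5 to 138) and Ifngr1 was at 191 and 289. Ifngr2 was also 2-fold higher in OM 24 h than in MY 24 h (1.02, or 0.71 after rescaling to a sum of 1000000). Jak2, a kinase of the receptor, was at 31.2, 18.5 and 39.5 in OM and at up to 85.8 in MY, with no overlap, and was 2-fold lower in the omentum at 24 h (-2.15). Jak1, the other kinase, was at 62.4 to 118 in OM and 141 to 184 in MY, and was 2-fold lower in the omentum at 24 h and 7 d (-1.16 each). Socs1, the induced inhibitor, was 2-fold lower in OM than in MY in the naive libraries (-1.05) and at 24 h (-1.02, or -0.99 with median-ratio scaling), and was at 94.2 and 83.0 at 7 d. Of these 6 genes, 4 were 2-fold lower in OM than in MY at 24 h, beside 10.2% of all genes. In that comparison 1 was 2-fold higher, beside 13.9%. Higher in every mesenteric library were 2 of the 6, beside 17.7% of all genes.

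**Figure D5:**
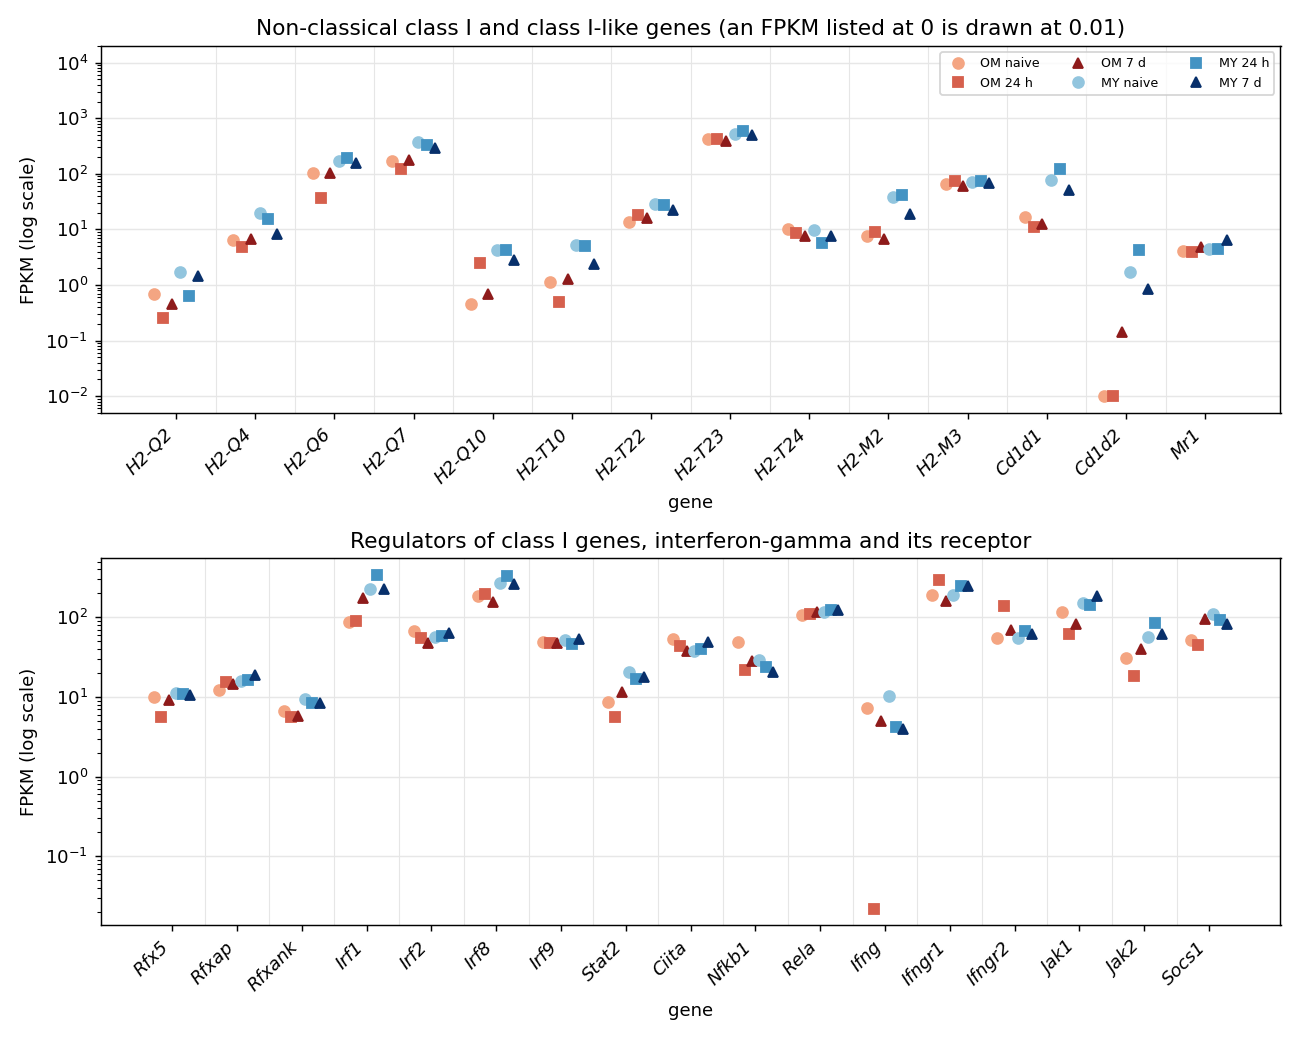
FPKM (log axis) of the expressed non-classical class I and class I-like genes (upper panel) and of regulators, interferon-gamma and its receptor (lower panel), 1 point per library. Omental points (red) lie below mesenteric points (blue) for 10 of 14 genes above, including Cd1d1 and H2-M2, and for Irf1, Irf8 and Stat2 below, and Ifng stands apart in OM 24 h at 0.0219.

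Upstream of loading, the proteasome core and its inducible activator differed in their pattern. The 11 other subunits of the 20S core had a median log2 fold change of -0.03 between the naive libraries. None of them passed 2-fold in any of the 7 comparisons, in which 2.79% to 24.1% of all genes did. Psme1 and Psme2, which form the interferon-induced PA28 activator, were higher in every mesenteric library. They were 2 of the 7 activator and assembly genes listed, beside 17.7% of all genes. Psme2 was at 422, 473 and 490 in OM and 841, 947 and 690 in MY, and Psme1 at 358, 335 and 337 against 558, 608 and 446. Psme2 was just past 2-fold lower in OM than in MY at 24 h and just short of it in the naive libraries (-0.99), and with median-ratio scaling it was short of it at 24 h (-0.97) and past it in the naive libraries. Psme3, the nuclear PA28 gamma, which is outside that complex, overlapped, at 72.2 to 108 in OM and 59.2 to 80.0 in MY. Of the 6 cytosolic peptidases, 1 passed 2-fold in any comparison, namely Thop1, which destroys peptides. It was higher in OM 24 h (13.6) than in MY 24 h (5.50), a comparison in which 13.9% of all genes were 2-fold higher. Its log2 fold change of 1.16 was 0.92 after rescaling to a sum of 1000000.

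Chaperones of the endoplasmic reticulum were higher in the omentum at 24 h. Calr, Canx, Pdia3 and Hspa5 exceeded MY 24 h by 2-fold or more in OM 24 h, with log2 fold changes of 1.65, 1.11, 1.34 and 1.96. These were 4 of the 9 genes of the list, beside 13.9% of all genes. In the same order, their log2 fold changes against naive were -0.30, -0.28, -0.13 and 0.03 in OM 24 h. In MY 24 h they were -1.17, -0.63, -0.55 and -0.89. The median of the list between the tissues was 0.64 in the naive libraries and 0.68 at 24 h. Hspa5 (BiP) was also 2-fold higher between the naive libraries (1.04), beside 8.18% of all genes. After rescaling to a sum of 1000000, 3 of the 9 genes of this list were 2-fold higher at 24 h and 0 between the naive libraries. Calr, which encodes calreticulin, was at 673, 546 and 348 in the omentum and 390, 173 and 323 in the mesentery, and it was 2-fold lower in MY 24 h than in MY naive (-1.17). At 7 d none of the 9 genes was 2-fold apart between the tissues (19.1% of all genes were), and 1 was lower in the omentum after that rescaling. The shares of all genes given here are without that rescaling. Tapbpl, the tapasin-related editor of class I peptides, went the other way from the chaperones, at 43.3, 32.9 and 51.5 in the omentum and 95.7, 96.8 and 99.6 in the mesentery. It was 2-fold lower in OM in the naive libraries (-1.13) and at 24 h (-1.53), and at -0.94 at 7 d.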

How the data were processed

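Per the submitters' processing notes and the methods, FastQC 0.11.4 served for read quality and STAR 2.4.2a for alignment to the mouse genome NCBI37/mm9, with UCSC gene models. The deposited FPKM, 1 value per gene symbol and library, came from Cufflinks. Whether counting used strand is not given in the sources used here. FPKM are not counts, so no count test was run, and with 1 library per condition no test between conditions was possible. Fold changes are differences of log2(FPKM + 1), which understates changes of low genes, over the 13064 genes that reached an FPKM of 1 in any library. A 2-fold difference was called. Python 3.11.15, numpy 2.4.6, pandas 2.3.3 and matplotlib 3.10.9 were used. The code was tested on simulated data.

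The members were set by symbol and not by their values. Earlier results of these data were known when the members, gene lists, marker lists and motifs were chosen. All 10 members are named, with the constitutive subunits, regulators and interferon-gamma genes, the genes of other lists past 2-fold, and the 5 genes most like the mean profile of the members. H2-T23, H2-T24, H2-Q2, H2-M3, Mr1, Psme1, Psme3, Batf3, Cd74 and the sort and marker genes were named for context after their values were seen. A regulator of class I genes was left out of the lists and is not reported here. The markers Ly6g and Trac had no row under these symbols. The alternatives tried were other pseudocounts (0.1 and 5), stricter and looser expression filters, a median-ratio scaling, a rescaling to a sum of 1000000, a 1.5-fold threshold, and leaving out the libraries of a time point. The scalings of the lists other than the members were added after seeing the data.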

Additional observations from a re-analysis of the deposited data

Results flagged for a closer look

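Clec9a, a receptor of cross-presenting dendritic cells, differed from naive in opposite directions in the tissues at 24 h. Its log2 fold change against the naive library was -0.83 in the omentum (FPKM 1.82 from 3.99) and 0.67 in the mesentery (7.18 from 4.14). It was higher in every mesenteric library, with a log2 fold change of -1.54 for OM 24 h against MY 24 h. These differences were not tested, since each condition has 1 library, and the FPKM of Clec9a was at most 7.18.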

How the results depend on the processing

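No paired analysis was possible because the labels number no replicates and each combination of tissue and time is a single library. Time points are not replicates of a tissue, and leaving out their libraries is given with the overlap counts. Of 810 recomputed values, 783 stayed within 1.5 times (counts and ratios) or 0.58 (log2) of their value, among them all 420 log2 fold changes of the members. For the members this was largely fixed in advance. Every member passed the stricter and the looser expression filter, so those settings could not change its log2 fold change. Pseudocounts act little at high FPKM, and most of the members' log2 fold changes were themselves smaller than 0.58. With a 1.5-fold threshold, the members apart between the naive libraries numbered 3 and those apart between OM 7 d and MY 7 d numbered 1. The share of all genes past 1.5-fold is not given here, so these counts have no background beside them. After rescaling to a sum of 1000000, the members not overlapping between the tissues numbered 9, all with the mesentery higher, beside 25.9% of all genes. That rescaling put the median of all expressed genes at -0.27 (log2) for OM 24 h against MY 24 h, from 0.00, and all 11 sign changes of a member's log2 fold change came from it, each of a value of at most 0.17.

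The other lists hold few genes, and 24 of their counts moved. With median-ratio scaling, 4 of 9 chaperone genes and 2 of 11 other 20S subunits were higher in every omental library, beside 17.9% of all genes. Activators 2-fold lower in OM then numbered 1 (naive) and 0 (24 h). After rescaling to a sum of 1000000, genes 2-fold lower in OM 7 d than in MY 7 d numbered 5 non-classical, 1 chaperone and 1 cross-presentation gene. Those lower at 24 h between the tissues numbered 2 activators and 4 regulators, and between the naive libraries 1 activator and 2 interferon-gamma genes. Those higher in OM numbered 0 chaperones (naive) and, at 24 h, 0 peptidases, 0 interferon-gamma genes and 1 cross-presentation gene. Those lower in OM 24 h than in OM naive numbered 1 chaperone, 2 interferon-gamma and 2 cross-presentation genes, those lower in MY 24 h than in MY naive 1 non-classical gene and 2 chaperones, and those lower in MY 7 d 2 non-classical genes. Higher in every mesenteric library were 1 of 3 constitutive and 5 of 11 other 20S subunits, beside 25.9% of all genes. Of the latter, 0 were higher in every omental library, beside 11.6%. The cause was not tested, and the depth behind the FPKM is not known. The shares of all genes past 2-fold under these scalings are not given beside the 2-fold counts. Rescaling to a sum of 1000000 put the median of all expressed genes at -0.19 (log2) between the naive libraries and -0.27 between the 24 h libraries. Its 2-fold counts therefore cannot be told apart from a shift of all genes.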

Other observations

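Genes of cross-presentation, the loading of class I with material taken up from outside the cell, were mixed. Of the 8 listed, 2 (naive), 2 (24 h) and 1 (7 d) were 2-fold higher in OM than in MY, beside 8.18%, 13.9% and 14.1% of all genes. Those 2-fold lower numbered 0, 1 and 0, beside 8.05%, 10.2% and 4.99%. Cybb, the membrane subunit of the phagocyte NADPH oxidase, was at 141, 244 and 143 in the omentum (naive, 24 h, 7 d) and at 36.8, 60.7 and 65.3 in the mesentery, and it was at least 2-fold higher in the omentum at each time point (log2 fold change 1.91, 1.99 and 1.12). Summed neutrophil markers were also higher in the omentum (6477 to 17157 against 224 to 735), and the part of these cells in the Cybb difference was not tested. Wdfy4, which dendritic cells need for cross-presentation, was at 46.2, 14.3 and 22.9 against 13.4, 8.98 and 15.4, 2-fold higher in the naive omentum and 2-fold lower in OM 24 h than in OM naive (-1.62). Sec61a1, a channel subunit of the endoplasmic reticulum, was 2-fold higher in OM 24 h (144) than in MY 24 h (64.1), with a log2 fold change of 1.15 that was 0.84 after rescaling to a sum of 1000000. Batf3, a factor of cross-presenting dendritic cells, overlapped between the tissues, at 67.2, 86.1 and 34.2 in the omentum and 74.1, 92.1 and 40.7 in the mesentery.

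The genes whose levels over the 6 libraries were most like the mean profile of the 10 class I genes were Rogdi, Relb, Tmem150c, Eno3 and Cbr1, with Pearson r between 0.995 and 0.998 among 3453 genes compared. The libraries fall into the tissues, so such values describe the split between them and carry no p. Relb, a subunit of the alternative NF-kappa B pathway, was at 64.3, 65.9 and 63.7 in the omentum and at 251, 290 and 197 in the mesentery.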
